A study of Homo sapiens with 6 samples.

Results

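Caspases 1, 2, 6, 8, 9 and 12, the caspase-8 regulator Cflar and the kinase Ripk1 form a set of 8 genes of cell death signalling, out of 38986 gene symbols in the count tables. They were taken by gene symbol, each had 1 row in all 6 libraries, and 6 of the 8 had enough counts to be tested, while Casp1 and Casp12 did not. The study compared 3 libraries labelled STAT6 (293T cells overexpressing wild-type STAT6) with 3 labelled Mock (genotype given as WT), both described as mCherry-positive and grown in DMEM with serum. 293T is a human embryonic kidney line, and the series' text states an interest in how STAT6, a transcription factor of interleukin 4 signalling, affects mitochondrial gene expression. Whether the 3 libraries of a group are separate cultures is not in the labels. The p-values then reflect only how these libraries vary, which may be technical.

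The labels and the counts differ in ways that bear on every comparison. The symbols are mouse symbols, although the labels name a human line. Stat6 stood at 33.6 ± 1.53 CPM in the libraries labelled STAT6 and at 94.5 ± 1.49 CPM in those labelled Mock (CPM, counts scaled to a common library total; mean ± SD, n = 3 here and below), so it was lower where the label says overexpression. Of 8 embryonic kidney markers 3 were at 0 counts in all libraries and only Lhx1 had enough counts to test (79, 59 and 60 counts in the libraries labelled STAT6 and 0 in each labelled Mock). Wt1 had 11 counts against 0 and Gata3 28 against 23, whereas 8 pigment cell markers together held 17009 to 17158 CPM and 14667 to 15019 CPM. The sum hides opposite directions. Tyr was at 29.1 ± 0.758 CPM in the libraries labelled STAT6 and 303 ± 5.29 CPM in those labelled Mock, and Dct at 6179 ± 17.4 and 4264 ± 111 CPM. Of the 8, 5 passed the threshold used below as higher and 2 (Tyr and Pmel) as lower, beside 35.8% and 36.8% of all tested genes. Below, "higher" and "lower" refer to the libraries labelled STAT6 against those labelled Mock, as the labels give them. Library totals ran from 19894773 to 29802693 counts.

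Caspases are cysteine proteases made as inactive precursors. Initiator caspases are switched on inside large complexes: caspase-8 at death receptors of the TNF family, caspase-9 on the apoptosome built by Apaf1 and cytochrome c, and caspase-2 on the PIDDosome. Executioner caspases, among them caspase-6, are then cleaved and cut structural and repair proteins. The inflammatory caspases, caspase-1 and mouse caspase-4 (also called caspase-11), act in inflammasomes. Both cut a gasdermin that opens pores, and caspase-1 processes interleukins. mRNA levels were measured here, and neither protease cleavage nor cell death was.

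Of the 3 genes of the set that act in the caspase-8 complex, the inhibitor gene Cflar rose, Casp8 rose slightly, and Ripk1 did not pass the threshold, with a narrow interval around no change. Cflar encodes c-FLIP, a relative of caspase-8 without protease activity that pairs with it and limits its activation. It was at 254, 267 and 272 CPM in the libraries labelled STAT6 and at 118, 135 and 128 CPM in those labelled Mock. The groups were far apart and each was tight. The fold change was 2.08 (log2 fold change 1.06, SE 0.04, adjusted p = 2.69e-17, edgeR quasi-likelihood test with Benjamini-Hochberg adjustment over all genes tested, used throughout). The counts are per gene, so the long and short forms of c-FLIP could not be separated.

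Casp8, the initiator caspase of death receptors, was at 85.1, 82.9 and 83.9 CPM against 67.5, 70.0 and 70.3 CPM. The groups did not overlap, and the change was small (log2 fold change 0.28, SE 0.04, adjusted p = 1.07e-07). Ripk1, a kinase that serves as a scaffold for survival signals and can also start caspase-8 dependent apoptosis or necroptosis, was at 56.7, 57.3 and 60.1 CPM against 57.8, 57.8 and 58.5 CPM. The Ripk1 values of the groups interleave, and the log2 fold change was -0.00 with a 95% interval of -0.09 to 0.09 (adjusted p = 0.991).

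**Figure D1:**
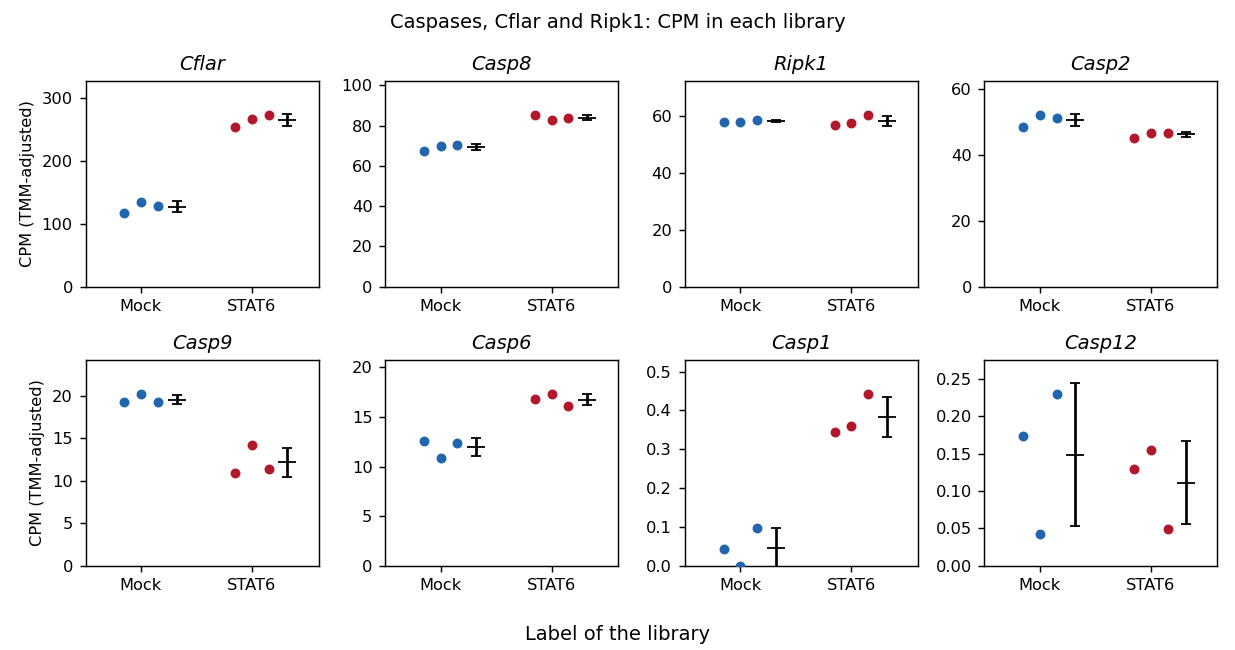
CPM (vertical axes, each from 0) of the 8 genes in each library, by label (horizontal axes). Points are libraries and the black bar is the mean ± SD of 3. Cflar lies between 254 and 272 CPM in the libraries labelled STAT6 and between 118 and 135 CPM in those labelled Mock, Casp9 falls the other way, and Ripk1 overlaps.

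Cflar also changed relative to Casp8. The log2 ratio of Cflar CPM to Casp8 CPM was 1.58, 1.69 and 1.70 in the libraries labelled STAT6 and 0.80, 0.95 and 0.87 in those labelled Mock. Every library labelled STAT6 had the larger ratio, with means of 1.66 ± 0.0659 and 0.87 ± 0.0732. The difference of 0.78 on the log2 scale is a 1.72-fold shift (p = 0.1 in a 2-sided exact permutation test, whose 20 assignments of 3 against 3 allow no smaller p). Gene length cancels in this difference only if each gene is expressed in the same forms in both groups, which was not measured. The ratio itself is not a ratio of transcript numbers. In the human assembly GRCh38.p14, only CASP10 lies between the protein-coding genes CFLAR and CASP8; a mouse annotation was not used here.

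**Figure D2:**
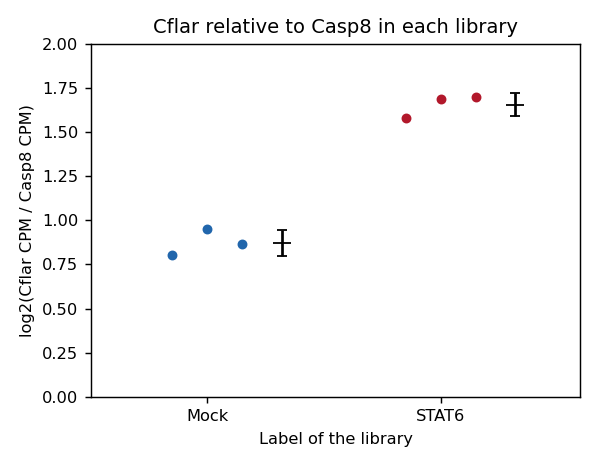
log2 ratio of Cflar CPM to Casp8 CPM (vertical axis) in each library by label (horizontal axis). Points are libraries and the black bar is the mean ± SD of 3. The lowest library labelled STAT6 (1.58) lies above the highest labelled Mock (0.95).

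The other initiators were lower. Casp9, the initiator of the mitochondrial pathway, was at 10.9, 14.2 and 11.4 CPM in the libraries labelled STAT6 and at 19.3, 20.2 and 19.2 CPM in those labelled Mock. Its libraries labelled STAT6 were the more scattered, replicate 2 being the highest, yet all lay below the libraries labelled Mock. The log2 fold change of Casp9 was -0.69 (SE 0.08, adjusted p = 1.86e-09). Casp2, the caspase of the PIDDosome, was at 45.2, 46.7 and 46.7 CPM against 48.5, 52.0 and 51.3 CPM. Here the groups were separated by a small gap only, and the log2 fold change was -0.13 (SE 0.05, adjusted p = 0.0106), a call that a threshold of 0.01 would not make.

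The partner genes of these caspases went in both directions. Apaf1, the scaffold that activates caspase-9, was at 88.6, 88.8 and 89.9 CPM against 75.2, 72.4 and 74.0 CPM (log2 fold change 0.27, SE 0.04, adjusted p = 1.12e-07), all higher. Of 8 tested genes of the apoptosome and of mitochondrial release, 2 rose, 3 fell and 3 did not pass the threshold (62.5% called, beside 72.6% over all genes tested). Diablo, an antagonist of IAP proteins, rose (log2 fold change 0.26), while the protease gene Htra2 (-0.33) and Aifm1, which encodes a flavoprotein of the mitochondrial intermembrane space (-0.58), fell. Cycs, which encodes cytochrome c, was at 574 ± 6.34 against 563 ± 4.90 CPM (log2 fold change 0.03, adjusted p = 0.374).

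The PIDDosome scaffold genes moved in opposite directions. Pidd1 was at 19.7, 21.1 and 18.1 CPM against 11.8, 12.2 and 12.9 CPM, and it rose (log2 fold change 0.67, SE 0.07, adjusted p = 7e-10). Cradd, which encodes the adaptor RAIDD that binds caspase-2, was at 5.61, 5.36 and 5.98 CPM against 9.42, 8.28 and 9.68 CPM, and it fell (log2 fold change -0.69, SE 0.11, adjusted p = 6.15e-07). The groups did not overlap for either gene.

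The executioner gene of the set, Casp6, rose. Its protease cuts nuclear lamins and can also cleave caspase-8. Casp6 was at 16.8, 17.3 and 16.1 CPM against 12.5, 10.9 and 12.4 CPM. All libraries labelled STAT6 were above those labelled Mock (log2 fold change 0.48, SE 0.08, adjusted p = 9.21e-07).

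Inflammatory caspases were scarce. Casp1, the interleukin-1 converting enzyme, had 8, 7 and 9 counts in the libraries labelled STAT6 and 1, 0 and 3 counts in those labelled Mock. The groups did not overlap. Summed, 24 counts against 4 give a rate ratio of 7.32 with an exact conditional 95% interval of 2.51 to 29.0 that covers counting error only. Mock replicate 3 held 3 of the 4 counts, and without it the ratio was 17.6 (95% interval 2.87 to 725). Leaving out any other library gave ratios from 5.11 (95% interval 1.76 to 20.3, without Mock replicate 2) to 7.72. Casp1 was below the filter on low counts, and with no filter its adjusted p was 0.00141.

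Casp12, a caspase linked to the endoplasmic reticulum in mice, had 3, 3 and 1 counts against 4, 1 and 7. These counts overlap, and the rate ratio of 0.712 (95% interval 0.237 to 1.96) shows no difference detectable at this depth. Its direction changed without Mock replicate 3 (ratio 1.03, 95% interval 0.281 to 4.11). Casp4, the caspase that senses lipopolysaccharide, had 70, 56 and 61 counts against 1, 1 and 2. That is 187 counts against 4, a rate ratio of 57.0 (95% counting interval 21.9 to 212; adjusted p = 1.55e-15). It was tested only because of its level in the libraries labelled STAT6, and it stood at 2.97 ± 0.0717 CPM there. In human gene order CASP12, CASP4, CASP5 and CASP1 are neighbours. Casp14, a caspase of skin differentiation, had 3, 6 and 2 counts against 0 in each library labelled Mock. The ratio is 4.47 if the Mock group is set to a floor of 3 summed counts. The exact conditional 95% interval of its rate ratio starts at 3.06 and has no upper limit.

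Taken as a set, 5 of the 6 tested genes of the 8 passed the threshold, 3 higher (Cflar, Casp6 and Casp8) and 2 lower (Casp9 and Casp2). Over all 12938 genes tested 72.6% passed, 35.8% higher and 36.8% lower, so a pass by itself sets none of them apart. The same 5 had groups that did not overlap, against 74.6% of all tested genes. With a test for a change beyond 1.5-fold (glmTreat), Cflar alone passed (adjusted p = 3.76e-11), against 21.5% of all tested genes. Casp9 did not pass it (adjusted p = 0.136). The median absolute log2 fold change was 0.38 in the set and 0.35 over all tested genes. Among all tested genes, 14.6% had a larger absolute change than Cflar, 24.8% than Casp9, 37.0% than Casp6, 59.1% than Casp8 and 79.1% than Casp2.

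The genes whose centred log2 CPM over the 6 libraries lay closest to Cflar, of 11604 named genes compared, were Tacc1 (Euclidean distance 0.05003), Elk3 (0.0648) and Garnl3 (0.0750). Tacc1 had a log2 fold change of 1.06, Elk3 of 1.01 and Garnl3 of 1.01. Closest to Casp9 were Fam81a (distance 0.133), Tfeb (0.143) and Mpst (0.159), with log2 fold changes of -0.66, -0.67 and -0.65. These distances describe 6 libraries in 2 groups, so fold changes near that of Cflar or Casp9 follow from the selection.

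Around these 8 genes, 100 other genes of death signalling were analysed, and 77 had enough counts to test. Of these 40 rose, 21 fell and 16 did not pass the threshold. That is 79.2% called, beside 72.6% over all genes, with a median log2 fold change of 0.16 beside -0.00. With glmTreat 17 of the 77 were higher and 4 lower, beside 14.0% and 7.51% of all tested genes. The 17 include Casp4, Fas, Tnf, Ngfr, Tnfaip3, Zbp1 and Il33, and the 4 include Tnfrsf21 and Pycard. These 7 and 2 genes passed the filter on low counts through 1 group only, so the glmTreat counts are a description, and an excess was not tested. Leaving out all genes that passed the filter through 1 group only, 67 remained, of which 32 rose and 19 fell at the edgeR threshold. Over all tested genes, with such genes kept, 35.8% rose and 36.8% fell. Shares over all genes without them were not computed, so these counts are a description too.

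**Figure D3:**
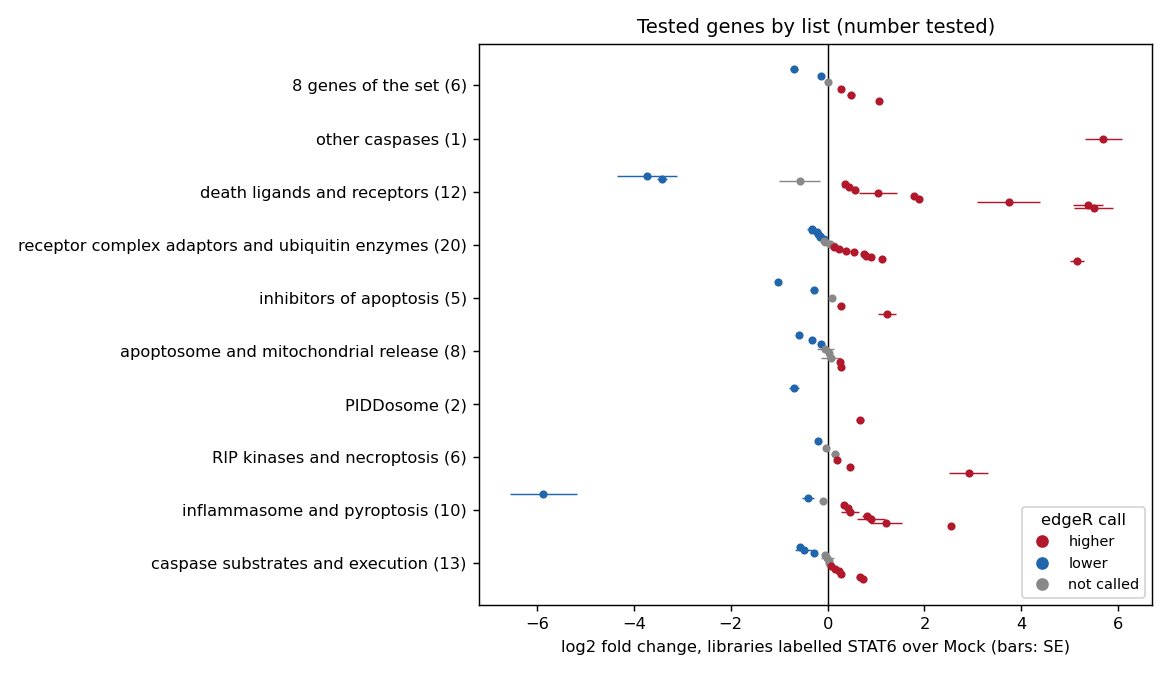
log2 fold change (horizontal axis, libraries labelled STAT6 over Mock) of each tested gene, with its SE as a bar, by list (vertical axis, number tested in parentheses). Red genes were called higher, blue lower and grey not called. The widest spread is among death ligands and receptors, from -3.73 for Tnfrsf21 to 5.50 for Fas, and the set itself runs from -0.69 to 1.06.

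Of 12 tested death ligands and receptors, 9 rose and 2 fell (91.7% called, beside 72.6% over all genes tested). Of the 12, 5 (Fas, Ngfr, Tnf, Tnfrsf1b and Tnfrsf21) reached the filter's level in all 3 libraries of 1 group only, and they passed the filter through that group. Among the other 7, 5 rose and 1 fell, beside 35.8% and 36.8% of all tested genes with such genes kept. Casp4, Pycard, Zbp1, Tnfaip3, Il33, Cd68, Krt5 and Lhx1, from the other lists, also passed the filter through 1 group. The counts of called genes in these lists are therefore a description. Tnfrsf10b, the mouse receptor for TRAIL, was at 44.1, 45.2 and 44.9 CPM against 12.2, 12.4 and 11.7 CPM. The libraries of each group were nearly equal (log2 fold change 1.89, SE 0.06, adjusted p = 4.18e-25). Tnfrsf12a, the receptor for TWEAK, rose by 1.79 (36.0 ± 1.01 against 10.5 ± 0.237 CPM). Ngfr, the neurotrophin receptor p75, had 288 counts against 8 (rate ratio 43.9, 95% counting interval 22.0 to 103).

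The 2 lower receptors were Eda2r and Tnfrsf21. Eda2r, an ectodysplasin receptor, was at 2.63, 1.91 and 2.30 CPM against 25.4, 24.4 and 23.8 CPM, 10.6-fold lower (log2 fold change -3.41, SE 0.10, adjusted p = 7.36e-26). Tnfrsf21, named after its value was seen, had 3 counts against 54 (rate ratio 0.0678, 95% counting interval 0.0136 to 0.209). Fas and Tnfrsf1a, the receptors best known to recruit the caspase-8 complex, were also named after their values were seen.

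Fas had 89, 89 and 94 counts in the libraries labelled STAT6 and 0, 0 and 7 in those labelled Mock, a rate ratio of 47.4 (95% counting interval 22.7 to 119). All 7 counts of the Mock group were in replicate 3. Without it the Fas ratio was 66.6 with the remaining Mock libraries set to a floor of 3 summed counts, which leaves out counting error. The log2 fold change of Fas was 5.50 with all libraries, 5.01 without Mock replicate 1 and 5.00 without Mock replicate 2. Tnfrsf1a, the main TNF receptor, was at 103, 105 and 107 CPM against 69.5, 71.0 and 72.2 CPM (log2 fold change 0.57, SE 0.04, adjusted p = 1.39e-15). The ligand genes Fasl and Tnfsf10 had 2 and 10 counts in all libraries labelled STAT6 and 2 and 7 in those labelled Mock, too few to test.

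**Figure D4:**
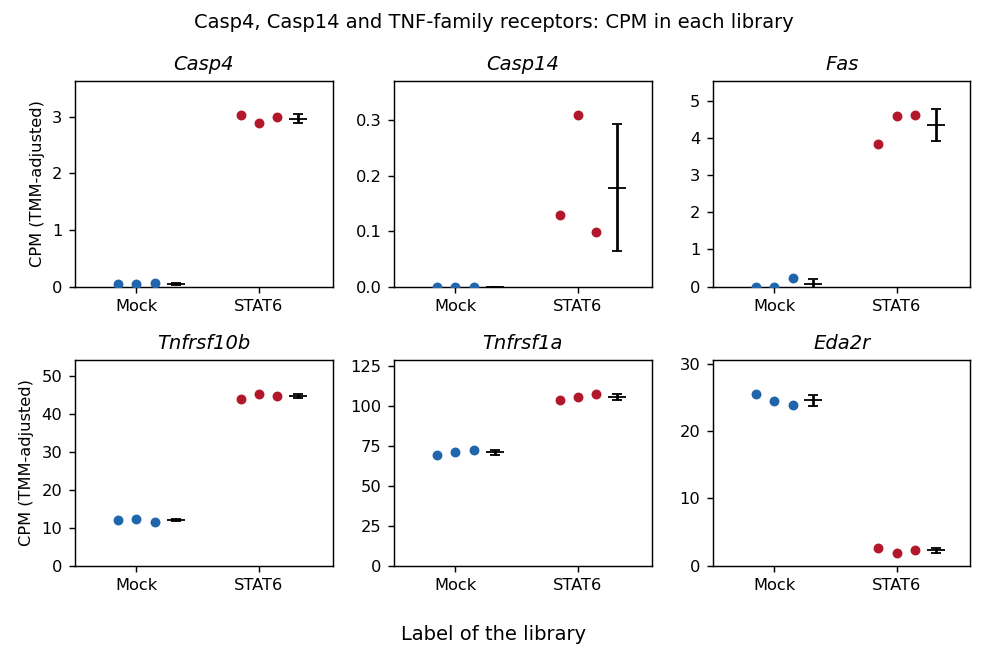
CPM (vertical axes, each from 0) in each library by label (horizontal axes) for Casp4, Casp14 and 4 receptors of the TNF family. Points are libraries and the black bar is the mean ± SD of 3. Eda2r is lower in the libraries labelled STAT6, and Casp4, Fas, Tnfrsf10b and Tnfrsf1a are higher.

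Of 20 tested adaptors and ubiquitin enzymes that decide between survival signalling and caspase-8 activation, 9 rose, 7 fell and 4 did not pass. With 80% called, beside 72.6% over all genes tested (35.8% higher and 36.8% lower), such a split does not set the list apart. The 4 with the smallest adjusted p were higher. They were Tnfaip3, which encodes the ubiquitin editing enzyme A20 (log2 fold change 5.15; 12, 9 and 19 counts in the libraries labelled Mock), Cyld, a deubiquitinase of Ripk1 (1.12), Tab2, an adaptor of the kinase TAK1 (0.80), and Tnip1, a partner of A20 (0.89). Without Tnfaip3, which passed the filter through 1 group only, 19 of the list remained, 8 higher and 7 lower. Cyld was at 103 ± 4.35 CPM in the libraries labelled STAT6 and 47.8 ± 2.37 CPM in those labelled Mock. Fadd, the adaptor that brings caspase-8 to the receptor, was at 19.6, 21.6 and 23.0 CPM against 26.5, 25.8 and 27.3 CPM. Fadd thus fell where Casp8 rose (log2 fold change -0.32, SE 0.06, adjusted p = 3.8e-05). Tradd, the TNF receptor adaptor, had a log2 fold change of 0.24 (adjusted p = 0.0105), a call lost with library totals alone (0.16, adjusted p = 0.0759) and without STAT6 replicate 2 (0.20, adjusted p = 0.0571). Fadd and Tradd were named after their values were seen.

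Of 5 tested genes of the IAP family 2 were higher and 2 lower (80% called, beside 72.6% over all genes tested). Birc3 (log2 fold change 1.24) and Birc2 (0.27), ubiquitin ligases for Ripk1, rose. Birc5, which encodes survivin, a protein that also acts in mitosis, fell by 1.02. Birc6 had a log2 fold change of -0.27 (adjusted p = 0.0301), and that call was lost without STAT6 replicate 1 (adjusted p = 0.0876), STAT6 replicate 3 (0.0728) or Mock replicate 1 (0.0627). Xiap, a direct inhibitor of caspase-9, was at 118 ± 3.65 against 111 ± 9.29 CPM (log2 fold change 0.09, adjusted p = 0.125). It passed without Mock replicate 2 (0.14, adjusted p = 0.00136) and with the replicate number as a block (0.09, adjusted p = 0.0469).

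In the necroptosis list 3 genes were higher and 1 lower of 6 tested (66.7% called, beside 72.6% over all genes tested). Without Zbp1, which passed the filter through 1 group only, 5 remained, 2 higher and 1 lower. Over all tested genes, with such genes kept, 35.8% were higher and 36.8% lower. Ripk3, the kinase that Ripk1 activates in necroptosis, had 1 count in all 6 libraries together, in STAT6 replicate 3. Mlkl, the membrane-breaking effector downstream of Ripk3, was at 113 ± 1.09 against 98.9 ± 3.13 CPM and rose by 0.19 on the log2 scale (adjusted p = 2.82e-05). Zbp1, a sensor of Z-form nucleic acid, had 95 counts against 15 and a log2 fold change of 2.91, which was 3.94 without Mock replicate 2. Ticam1, the adaptor TRIF, rose by 0.47 and the phosphatase gene Pgam5 fell by 0.19.

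Of 24 listed inflammasome and pyroptosis genes 10 could be tested, 7 higher and 2 lower (90% called, beside 72.6% over all genes tested). Without Il33 and Pycard, which passed the filter through 1 group only, 8 remained, 6 higher and 1 lower. Over all tested genes, with such genes kept, 35.8% were higher and 36.8% lower, and the counts are a description. Pycard, which encodes ASC, the adaptor that couples sensors to caspase-1, had 1, 0 and 0 counts in the libraries labelled STAT6 against 31, 15 and 50 in those labelled Mock. That is a rate ratio of Mock over STAT6 of 78.7 (95% counting interval 13.8 to 3140), opposite in direction to Casp1, and the 1 count lay in STAT6 replicate 1. Gbp2, an interferon-induced GTPase, rose by 2.54, Nek7, a partner of NLRP3, by 0.33, and Ninj1, which acts in plasma membrane rupture, by 0.41. Gsdmd, the gasdermin cut by caspase-1 and caspase-11, had 75 counts against 49 (log2 fold change 0.90, adjusted p = 0.0065) and was named after its value was seen. Genes at 0 counts in the libraries labelled Mock and at 1 to 3 in the others were the sensor gene Nlrp3 (2 counts), Naip1, Mefv and Il1a, and in the other death signalling lists Ripk3, Ripk4, Birc7 and Tnfsf15. Il1b, a substrate of caspase-1, had 0 counts throughout.

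Of 13 tested caspase substrates and execution factors, 6 rose, 3 fell and 4 did not pass (69.2% called, beside 72.6% over all genes tested). Bid, the BCL2 family protein that caspase-8 cuts, was at 62.1 ± 2.09 against 37.8 ± 2.09 CPM; its log2 fold change was 0.72 (SE 0.05) with an adjusted p of 1.38e-15. It was the only gene of this list past glmTreat. Rock1, a kinase that caspases cut and that drives membrane blebbing, rose by 0.66 (278 ± 4.38 against 176 ± 17.6 CPM). Lmnb1, which encodes lamin B1, fell by 0.56 and Parp1, a DNA repair enzyme cut by executioner caspases, by 0.28. Lmna, which encodes the lamin cut by caspase-6, was at 237 ± 2.11 against 234 ± 8.52 CPM (log2 fold change 0.02, adjusted p = 0.578) and was named after its value was seen.

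Macrophages express Casp1, Casp4 and Pycard, so their markers are given beside these genes. Of 10 macrophage markers 2 were at 0 counts in all libraries (Adgre1 and C1qa), Ptprc had 3 counts against 1, Csf1r 4 against 2, Itgam 0 against 2, Tyrobp 0 against 1 and Fcer1g 20 against 17. Cd14 had 21 counts against 32 and did not pass the threshold (log2 fold change -0.32, adjusted p = 0.538). The list summed to 3.82 to 5.00 CPM in the libraries labelled STAT6 and 1.80 to 2.17 CPM in those labelled Mock, with Cd68 (log2 fold change 1.86) and Lyz2 (1.34) higher. The part of such cells in the Casp1 and Casp4 values was not tested. Of 8 lymphocyte markers 4 were at 0 and the list summed to 0.0432 to 0.155 CPM against 0.129 to 0.131 CPM. Summed levels of fibroblast markers were 82.0 to 88.0 CPM against 35.1 to 36.0 CPM, with Col1a1 higher and Col1a2 and Pdgfrb lower, and endothelial markers summed to 2.25 to 2.79 CPM against 0.948 to 1.43 CPM. The only endothelial marker tested, Vwf, was higher (105 counts against 81, log2 fold change 0.65, adjusted p = 0.0248). Pecam1 had 45 counts against 8, Tek 5 against 1, Kdr 1 against 0, Tie1 0 against 1, and Cdh5 was at 0. Epithelial markers summed to 5.51 to 7.40 CPM against 1.54 to 3.15 CPM. Of 3 tested, Cdh1 (141 counts against 45, log2 fold change 1.92) and Krt14 (209 against 107, 1.23) were higher. Krt5 (34 against 28) did not pass the threshold, so 66.7% were called, beside 72.6% over all genes tested. Krt8 had 1 count against 0, Krt18 2 against 0, and Epcam was at 0. In bulk RNA, fewer cells of a type and less RNA per cell cannot be told apart.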

How the data were processed

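Each of the 6 deposited files gives 1 whole-number count per gene symbol. Per the submitters' processing notes, FastQC, STAR, Salmon and edgeR were used (no versions) with the human build GRCh37; how reads were assigned to genes, and with what strand setting, is not given in the sources used here. A stranded mRNA kit was used, per the labels' protocols. Counts were analysed with edgeR 4.0.16 in R 4.3.3 (filterByExpr, TMM, robust quasi-likelihood fit, group as the only term, threshold 0.05), and CPM uses TMM-adjusted totals. SE is the absolute log2 fold change divided by the square root of F. Sparse genes have exact conditional 95% intervals of summed counts. In simulated counts for 12736 genes the fit recovered 50.0% of genes changed 1.2-fold, 84.0% at 1.5-fold and 98.0% at 2-fold. Only 50 genes were changed at each fold size, far fewer than the 9399 called in the data. The adjustment is stricter with so few changes, so these shares do not measure recovery in the real comparison. Alternatives were other scalings and filters, DESeq2 1.42.0, limma-voom (limma 3.58.1), the replicate block, glmTreat, a stricter threshold and each library left out. The genes, lists and tests were chosen with earlier results of these data known. The text names the caspases, up to 4 tested genes of each list with the smallest adjusted p, genes at 0 in a group, the nearest genes, and others marked as named after their values were seen, as were Cycs, Xiap, Fasl and Tnfsf10. Some listed genes are not reported here and are in no list count. No protein or promoter sequence of the mouse was used here.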

Additional observations from a re-analysis of the deposited data

How the results depend on the processing

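Cflar, Casp6, Casp8 and Casp9 kept their direction and call under each scaling, filter, tool, block and left-out library tried, with log2 fold changes of 0.98 to 1.10, 0.41 to 0.51, 0.20 to 0.29 and -0.81 to -0.62. Casp2 ran from -0.21 to -0.12 and was not called at an adjusted p of 0.01, which left 1 gene of the set lower. With glmTreat for a change beyond 1.5-fold 2779 genes were called, with 1 gene of the set higher and 0 lower, where 1 (Casp9) was lower at an unadjusted p under 0.05 and edgeR without a minimum change called 2, and 17 higher and 4 lower among the other death signalling genes. Ripk1 had no stable sign: its log2 fold change was 0.0018 with DESeq2 size factors, 0.0054 with a filter of 1 CPM, 0.0020 with DESeq2, 0.00084 with the replicate block, -0.074 with library totals alone, -0.016 with upper-quartile scaling, -0.017 with no filter on low counts, and -0.030 to 0.015 with a library left out. With library totals alone Cycs was at -0.046 and Lmna at -0.053, and Lmna ran from -0.012 to 0.037 with a library left out. The log2 ratio of summed Casp12 counts ran from -0.88 to 0.040 with a library left out, the highest value being without Mock replicate 3, which held 7 of the 12 Mock counts. The cause of these changes was not tested. The Cflar to Casp8 difference was 0.75 to 0.82 with a library left out and 0.78 with a replicate block (exact sign-flip p = 0.25, the smallest possible). Replicate numbers are shared between the groups, but only 1 of 3 same-numbered pairs had deviations correlated above 0.1, and 5 of 6 libraries correlated best with their own number, a hint from the data only. The block gave 9422 calls against 9399. At these depths Casp1, Casp12, Casp14, Ripk3 and the ligand genes are limited by counting error.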
